A study of Mus musculus with 29 samples.

Results

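The 8 complement genes described here are C1qa, C1qb, C1qc, C4b, Cfb, C3, C3ar1 and C5ar1, taken by name from every counts table of the series. They are 8 of 19704 genes in the young brain tables, of 27514 in the aged brain tables and of 16623 in the blood tables. All were listed in each table. Their level is given as CPM, a gene's counts scaled to a common total of all genes, after the cells of a type were summed within a library. The libraries were made by Drop-seq, which counts transcripts of single cells in droplets, from C57BL/6J mice with sham surgery or with a stroke made by blocking the middle cerebral artery for a time. The young mice were males aged 8 to 10 weeks, with 4 brain libraries each for sham at day 2, stroke at day 2 and stroke at day 14, and with 4, 4 and 3 blood libraries for the same groups. The aged mice were 17 to 20 months old, with 2 brain libraries for sham at day 2 (1 male, 1 female), 3 for stroke at day 2 (1 male, 2 female) and a single female one for stroke at day 14. Each brain library pooled 4 to 5 hemispheres, digested with papain in the presence of a transcription inhibitor, and was sorted for CD45-expressing immune cells and for CD45-negative Ly6C-high endothelial cells. Each blood library pooled leukocytes of 2 mice. Sham libraries were taken at day 2 alone, so both stroke times were set against the same controls, and a difference of day 14 from sham holds the stroke and the later time together.

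Complement is a cascade of secreted proteins that tags cells and debris and calls in phagocytes. The C1q complex, built from the chains encoded by C1qa, C1qb and C1qc, starts the classical pathway when it binds its targets; C4, encoded in mice by C4b, is cleaved next, and C3 is the point where all pathways meet. Factor B, the product of Cfb, forms the convertase of the alternative pathway, which amplifies C3 cleavage. The released fragments C3a and C5a act on the receptors encoded by C3ar1 and C5ar1, which are known from macrophages, granulocytes and microglia. In brain, microglia are a main source of C1q, and C1q and C3 are known to mark synapses for removal.

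In mm10, the build named in the submitters' processing notes, the 3 C1q genes lie side by side on the minus strand of chromosome 4, with C1qb at chr4:136880129-136886187, C1qc at chr4:136889804-136893065 and C1qa at chr4:136895917-136898803 (GENCODE annotation of GRCm38). C4b (chr17:34728380-34743882) and Cfb (chr17:34856374-34862518) lie in the same region of chromosome 17, and C3 lies further along at chr17:57203970-57228136. C3ar1 is at chr6:122847138-122856161 and C5ar1 at chr7:16246743-16259540, and both are on the minus strand, as are the others. Cfb overlaps the read-through gene Gm20547, and C4b has a near-identical copy, C4a, which the brain tables do not list, so reads of either copy could be counted under C4b. Of the 8 genes, 5 had a RefSeq promoter entry (build GRCm38.p6). The stretches of 250 bases before the start are printed for C1qb, as the C1q gene whose promoter carries an ETS core close to its start, and for C3 and C3ar1, which were called in microglia and whose windows hold a match. C5ar1 was called there too, and its window, which holds none, is not printed. They run 5′ to 3′ on the minus strand, and capitals mark a matched motif.
C1qb, chr4:136886201-136886450: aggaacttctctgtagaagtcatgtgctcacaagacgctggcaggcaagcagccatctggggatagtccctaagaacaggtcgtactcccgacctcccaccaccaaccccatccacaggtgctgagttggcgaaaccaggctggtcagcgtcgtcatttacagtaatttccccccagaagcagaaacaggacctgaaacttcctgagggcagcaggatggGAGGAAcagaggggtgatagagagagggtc
C3, chr17:57228137-57228386: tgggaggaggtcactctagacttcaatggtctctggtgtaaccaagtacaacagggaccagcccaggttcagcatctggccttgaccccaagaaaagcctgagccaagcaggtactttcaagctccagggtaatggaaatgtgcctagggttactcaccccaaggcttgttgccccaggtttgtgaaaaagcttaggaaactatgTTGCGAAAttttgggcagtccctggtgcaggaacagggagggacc
C3ar1, chr6:122856158-122856407: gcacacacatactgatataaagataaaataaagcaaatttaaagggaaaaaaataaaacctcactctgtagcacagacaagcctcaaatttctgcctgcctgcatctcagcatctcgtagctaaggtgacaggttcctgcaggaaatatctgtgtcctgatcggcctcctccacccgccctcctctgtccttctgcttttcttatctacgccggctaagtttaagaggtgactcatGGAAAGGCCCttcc
The capitals in C1qb are the ETS core GAGGAA at -30 to -25 from the start, those in C3 a match to the C/EBP motif TTGCNNAA at -45 to -38, and those in C3ar1 a match on the other strand to the NF-kB motif (GGG, any 2 bases, TTTCC) at -14 to -5. Searched on both strands of all 32536 RefSeq windows of this length, the ETS core was found in 23.4%, the C/EBP motif in 9.57% and the NF-kB motif in 1.4%. The C1qc window also held GAGGAA, at -193 to -188. No window of the 5 held TTCNNNGAA (present in 7.04% of windows) or GAAA, any 2 bases, GAAA (2.98%), the cores of sites of interferon-activated factors, and none of the 5 motifs was in the C5ar1 window. These motifs can overlap one another, and a match describes letters only.

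Brain libraries held 1143 to 5121 cells and 819438 to 5855047 counts, blood libraries 2360 to 6328 cells and 966914 to 5232662 counts. Depth per cell was greater in most young stroke libraries than in sham: the median was 321 to 638 counts in sham, 571 to 1034 at day 2 and 402 to 1363 at day 14. No library pair shared more than 7 cell barcodes. Cell types are the deposited codes, and the highest of the marker lists was the microglial list for Mg, the border-associated macrophage list for BAM, the monocyte list for MdC (called monocyte-derived cells here), the neutrophil list for Gran (granulocytes) and the endothelial list for EC. For the dendritic code DC the monocyte list was highest. The microglia of 1 library stood apart: those of young stroke day 2 replicate 3 were 58 cells, with 3.25 CPM of the microglial receptor gene P2ry12 against up to 1291 CPM in the other day 2 libraries, with 42.2 CPM of Tmem119, and with 849 CPM of the 6 monocyte markers summed. Its microglia held 26321 counts as deposited and 128717 when each fractional value was rounded up to a whole count. Fold changes of the 8 genes in day 2 microglia are therefore given with and without this library. Most deposited values are fractions, and some are so close to 0 that a gene entered in several cells sums to 0 CPM, so a level of 0 describes the deposited values; rounded-up values are given beside the zeros on which a comparison of brain cells turns. Where nothing says that libraries came from separate days or litters, p-values measure the spread between these libraries.

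In young brain, the genes differed in the cell types that led them, while the 3 C1q genes shared an order. The C1q genes were highest in microglia, next in border-associated macrophages and then in monocyte-derived cells. For C1qb the lowest, median and highest of the 12 libraries were 2115, 7745 and 12572 CPM in microglia, 834, 4948 and 7712 CPM in border-associated macrophages, and 0, 991 and 3422 CPM in monocyte-derived cells. Microglia exceeded border-associated macrophages in 11 of 12 libraries for each of the 3 C1q genes, and border-associated macrophages exceeded monocyte-derived cells in 12 of 12. Among types with at least 20 cells in a library, C4b was led by border-associated macrophages, at 0, 96.4 and 375 CPM, with microglia at 0, 6.01 and 51.9 CPM. The first exceeded the second in 9 of 12 libraries. The code OD, with too few cells to be ranked, held a median of 5.35% of C4b counts at day 2. Its range was 4.28% to 100% over 3 libraries, on a median of 0.236% of all counts. Cfb was led by monocyte-derived cells (0, 24.7 and 153 CPM), above microglia (0, 1.4 and 15.6 CPM) in 8 libraries.

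C3 was led by granulocytes (0, 110.2 and 236 CPM) and monocyte-derived cells (28.3, 77.8 and 222 CPM), and these neighbours did not separate, since granulocytes were higher in 6 of 12 libraries. In microglia the median library was at 0 CPM of C3. C3ar1 was spread over 3 macrophage types, with medians of 448 CPM in border-associated macrophages, 314 CPM in microglia and 268 CPM in monocyte-derived cells, and each was higher than the next in 9 of 12 libraries. C5ar1 was highest in granulocytes (287, 617 and 892 CPM), which exceeded border-associated macrophages (0, 239 and 716 CPM) in 11 of 12 libraries; microglia (40.7, 108 and 216 CPM) and monocyte-derived cells (0, 98.8 and 389 CPM) were close, the first being higher in 5 of 12. Endothelial cells had a median of 0 CPM for all 8 genes as deposited.

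**Figure D1:**
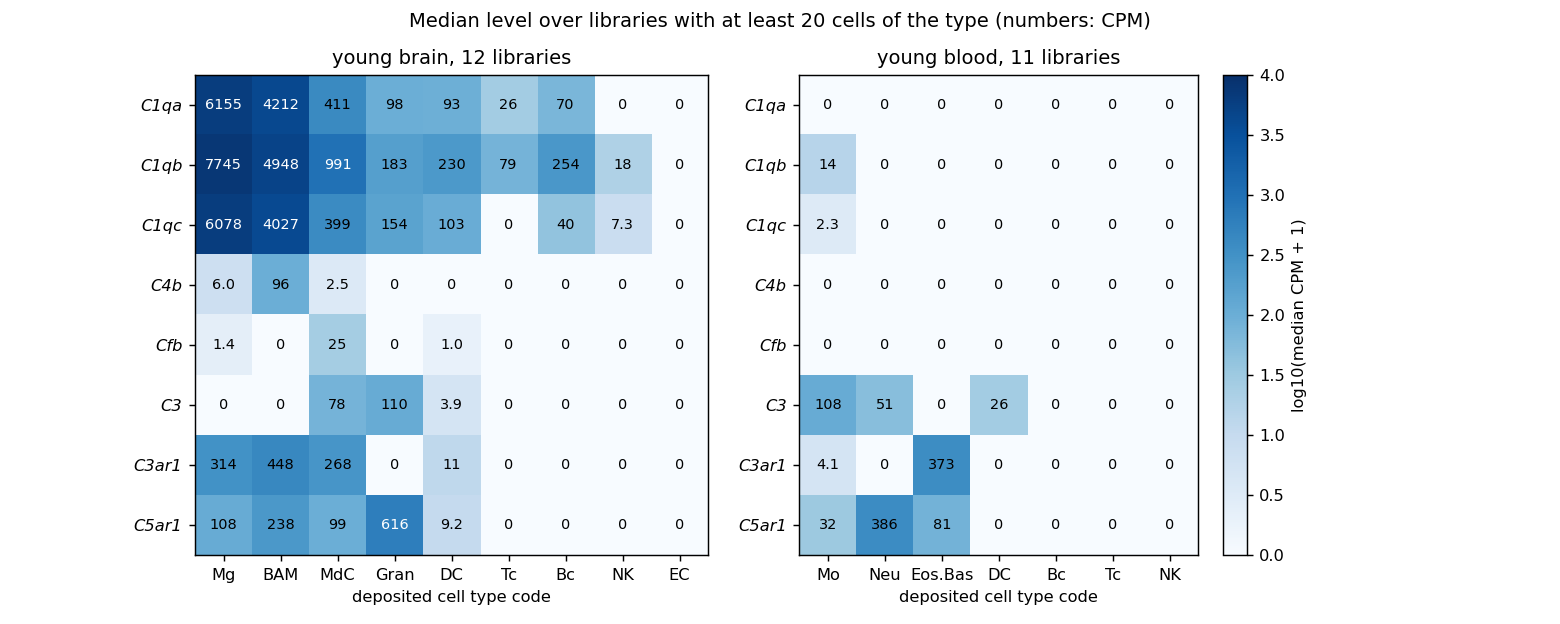
Median CPM of the 8 genes over young libraries with at least 20 cells of a type, by deposited type code, for brain (12 libraries) and blood (11 libraries); the colour scale is log10(median CPM + 1) and the numbers are CPM. The C1q genes are dark in the codes Mg and BAM, and C5ar1 peaks in Gran (617 CPM) and in blood Neu (386 CPM).

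The types that held most of a gene's counts differed between groups, as did the makeup of the sorted cells. Monocyte-derived cells were a median of 2.34% of a young sham library's cells, 51.9% at day 2 and 22.7% at day 14. They held 92.8% of a library's Cfb counts at day 2 (median; range 87.3% to 98.6%) and 83.6% at day 14 (83.1% to 88.4%). Of the C3 counts, monocyte-derived cells held 96.2% at day 2 (92.9% to 99.6%), and at day 14 they held 62.3% (41.1% to 67.4%), with 31% (26.3% to 43.1%) in microglia. C4b counts lay mostly in border-associated macrophages in sham (median 76.1%, range 0% to 85.9%) and in microglia at day 14 (84%, range 69% to 96.5%). Microglia held 95.2% of C1qb counts in sham, 69.5% at day 2 with a range of 1.43% to 87.8% (65.1% to 87.8% without the library of 58 cells), and 82.4% at day 14.

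**Figure D2:**
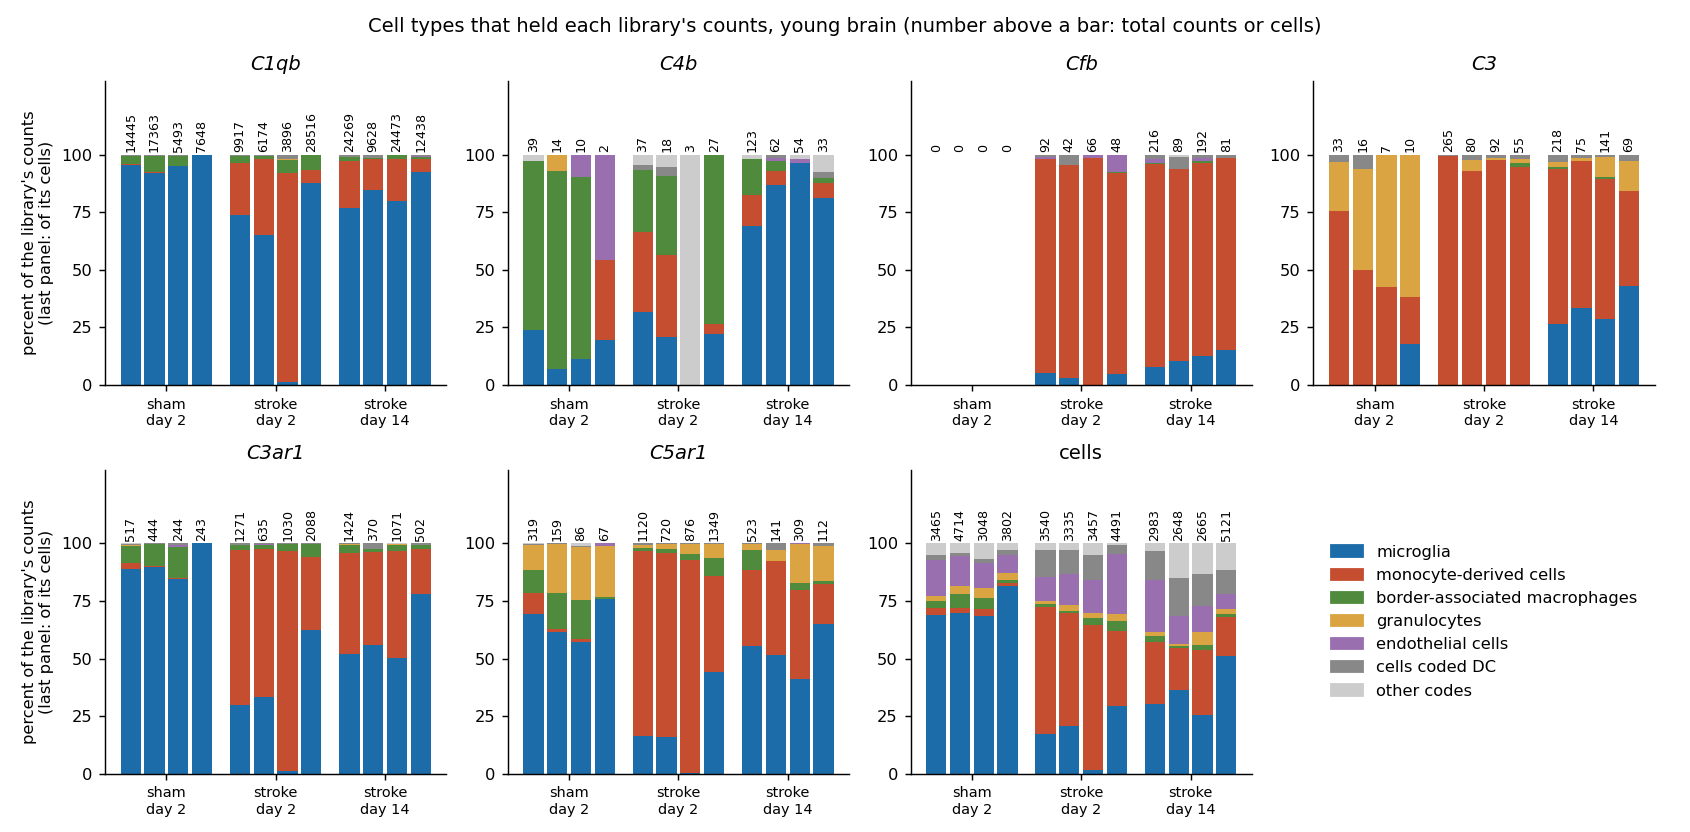
Percent of each young brain library's counts of a gene that lay in each cell type, with the library's cells in the last panel; the number above a bar is its total of counts or cells. Monocyte-derived cells hold most Cfb counts in every stroke library, and microglia hold most C4b counts at day 14 (69% to 96.5%).

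Each type was tested on counts summed per library with edgeR's quasi-likelihood test, and a gene is called at a p under 0.05 adjusted over all genes tested. Of the 8 genes, 3 were called in microglia at day 2 against sham, all higher, where 31.4% of all genes tested were called and 15.7% as higher (also 3 without the library of 58 cells). At day 14 against sham 4 were called in microglia, all higher, where 15.2% of all genes were called and 10.6% as higher. Between the times 2 were called, both higher at day 14, where 6.93% were called and 3.47% as higher. In monocyte-derived cells 7 of the 8 passed the filter on low counts, and 3 were called as higher at day 2 (6.71% of all genes were called, 5.66% as higher), 5 as higher at day 14 (5.15% and 4.21%), and 1 as higher and 1 as lower between the times (1.79%). In microglia the stroke libraries lay wholly above sham for 10.7% of all genes at day 2 and 5.73% at day 14, and day 14 wholly above day 2 for 3.87%. In monocyte-derived cells these shares were 8.16%, 7.31% and 4.90%, with 5.48% wholly lower at day 14 than at day 2. C4b was the gene left out there, with 20 counts at day 2, 23 at day 14 and 1 in sham. The median log2 fold change of the tested members in microglia was 0.45 at day 2 and 0.90 at day 14, against -0.05 and -0.04 over all genes. In monocyte-derived cells it was 1.76 and 2.81, against 0.29 and 0.28. The scaling moved these splits. Without TMM scaling, which offsets differences in RNA makeup between libraries, the higher calls over all genes in monocyte-derived cells went from 457 of 542 to 180 of 355 at day 2 and from 340 of 416 to 200 of 399 at day 14, and the median of all genes went from 0.29 to -0.13 and from 0.28 to -0.11. Then 2 of the members were called at day 2 and 4 at day 14, all higher. In microglia the higher calls went from 1588 of 3182 to 1273 of 3391 at day 2, from 1071 of 1544 to 670 of 3425 at day 14 and from 352 of 703 to 202 of 1157 between the times, with 3, 3 and 2 members called, all higher. C3, C4b and Cfb in microglia reached the filter's level of 7.26 CPM in the 4 day 14 libraries and otherwise only C4b in 1 day 2 library, so all tests of them there, also between the times, are descriptions. In monocyte-derived cells Cfb reached the level (10.6 CPM) in no sham library, and C1qa, C1qb, C1qc, C3ar1 and C5ar1 reached it in 3 of 4, on 16 to 115 sham counts, so these genes too passed through their stroke libraries and their tests against sham are descriptions. The counts and medians above are descriptions as well and support nothing by themselves.

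**Figure D3:**
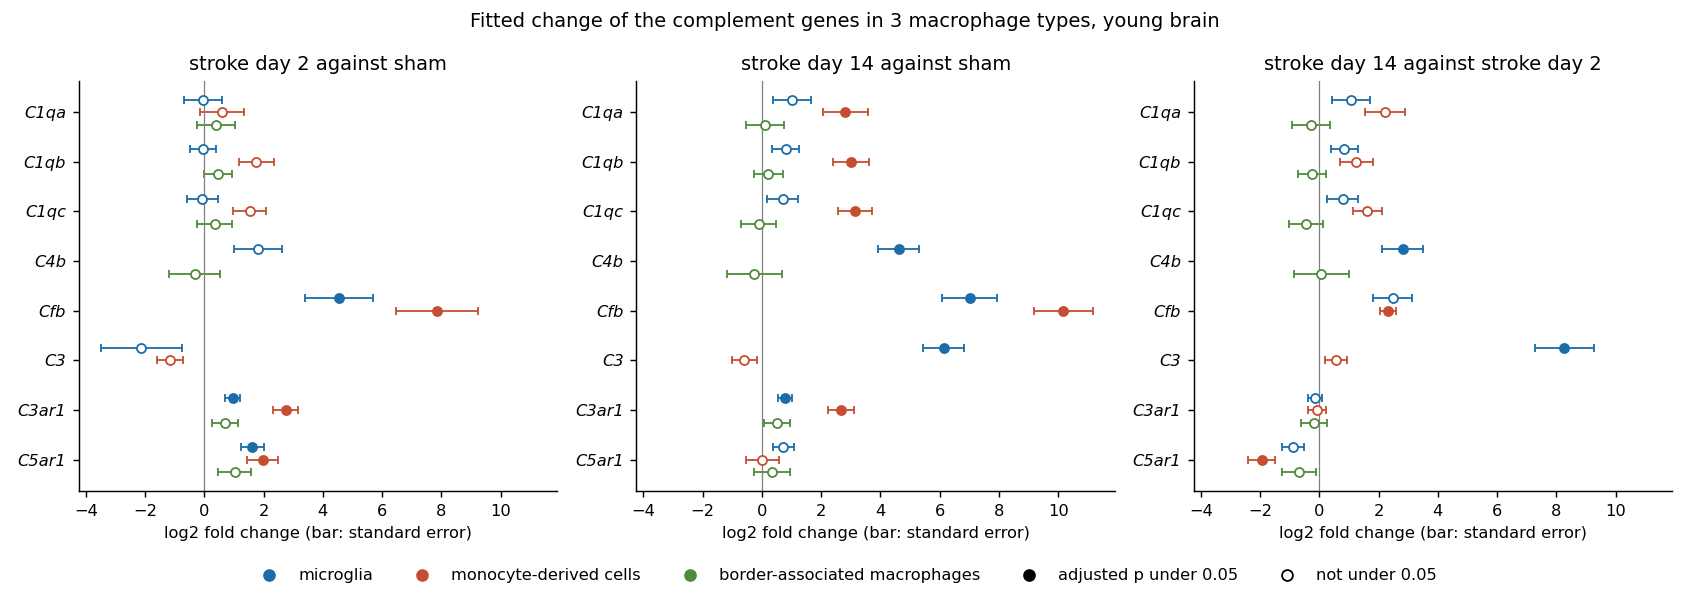
Fitted log2 fold change of each tested gene in microglia, monocyte-derived cells and border-associated macrophages of young brain, for the 3 comparisons; bars are standard errors and filled points were called at an adjusted p under 0.05. C3, C4b and Cfb in microglia are filled at day 14, and no point of border-associated macrophages is filled. Fitted changes against groups with no or few counts (Cfb against sham, C3 in microglia) depend on the fit and are no bounds.

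The C1q chains did not pass the test in microglia at either time after stroke. C1qa, in replicates 1 to 4, was at 7396, 6510, 4123 and 4320 CPM in sham, 5425, 5800, 258 and 7052 CPM at day 2, and 7647, 8069, 10945 and 5710 CPM at day 14. C1qb was at 8465, 8923, 5645 and 6099 CPM in sham, 7101, 6637, 2115 and 9125 CPM at day 2, and 8635, 7844, 12572 and 7646 CPM at day 14. The 3 groups overlapped for both chains, and the low day 2 value belonged to the library of 58 cells. C1qc gave 5991 ± 1171 CPM in sham, 4944 ± 2934 at day 2 and 7085 ± 1712 at day 14 (SD, n = 4 each), and its groups overlapped as well. By edgeR's quasi-likelihood test, with p adjusted over all genes tested, the log2 fold changes at day 2 were -0.06 ± 0.64 (SE) for C1qa, -0.04 ± 0.45 for C1qb and -0.08 ± 0.52 for C1qc (adjusted p of 0.964, 0.96 and 0.935). Without the library of 58 cells they were 0.32, 0.26 and 0.27 (adjusted p of 0.432, 0.513 and 0.485). At day 14 they were 1.01 ± 0.65, 0.80 ± 0.45 and 0.71 ± 0.53 (adjusted p of 0.301, 0.238 and 0.372), and C1qa was called (1.05, adjusted p = 0.0378) when the day 2 libraries were left out of the fit. The day 14 fits include TMM scaling, without which the median log2 change of all genes moved from -0.04 to -0.49. Mean levels at day 14 were 8093 CPM against 5587 in sham for C1qa, and 9174 against 7283 for C1qb. Standard errors of this size leave changes of about the size of the day 14 estimates undecided.

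The 3 chains, whose products are joined in 1 complex, kept a similar mix in microglia. There C1qb gave a median of 38.9% of the summed C1q counts in sham, 38.6% at day 2 and 37.9% at day 14, C1qa gave 28.7%, 29.7% and 33.3%, and C1qc the rest. The library of 58 cells differed, with 65.1% C1qb and 7.95% C1qa as deposited, and with 42.6% and 27.2% when counts were rounded up. In monocyte-derived cells the mix differed more between the times: C1qa gave a median of 14.4% at day 2 (6.29% to 23.6%) and 25.2% at day 14 (20.3% to 29.5%), and C1qb 60.3% and 46.8%, with overlapping ranges and no test (rounded up, C1qa gave 17.2% and 25.5%).

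In monocyte-derived cells the C1q genes rose by day 14. C1qb, in replicates 1 to 4, was at 613, 720.4, 109 and 0 CPM in sham, 796, 1369, 1123 and 859 CPM at day 2, and 2844, 2215, 3422 and 1620 CPM at day 14. Every day 14 library exceeded every other library. The 4 sham libraries held only 43 to 99 such cells each, and the one at 0 CPM was at 312 CPM (7 counts) with counts rounded up. Against sham, the log2 fold change at day 14 was 3.01 ± 0.62 for C1qb (adjusted p = 0.00927, edgeR), 3.15 ± 0.57 for C1qc (adjusted p = 0.00412) and 2.81 ± 0.76 for C1qa (adjusted p = 0.0424), with no overlap of the groups. With counts rounded up they were 2.61, 2.57 and 2.35, all called. The call on C1qa was lost in 7 of 16 alternative analyses, among them each of sham replicates 1, 3 and 4 and day 14 replicates 1 and 3 left out in turn (highest adjusted p 0.107), and without sham replicate 2 the change was 3.47 (adjusted p = 0.0492). At day 2 the changes were 1.76 ± 0.60 for C1qb, 1.53 ± 0.56 for C1qc and 0.59 ± 0.73 for C1qa, with adjusted p of 0.0962, 0.121 and 0.741. C1qb and C1qc were called there with the replicate number as a block (edgeR, adjusted p of 0.013 and 0.0196). They were also called without the filter on low counts (0.0285 and 0.0409). Day 14 against day 2 gave 1.25 ± 0.56, 1.62 ± 0.50 and 2.22 ± 0.68 for C1qb, C1qc and C1qa (adjusted p of 0.393, 0.142 and 0.145). Without day 2 replicate 2 the last was 2.97 with an adjusted p of 0.0269. With counts rounded up both C1qa (1.95, adjusted p = 0.0481) and C1qc (1.5, adjusted p = 0.0477) were called between the times, and DESeq2 called C1qc (1.69, adjusted p = 0.0204). The replicate block in edgeR called both as well (adjusted p of 9.74e-05 for C1qa and 0.00934 for C1qc).

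RNA of microglia was also measured beside these cells. The 3 C1q genes summed to 15.1% to 27.9% of the level in microglia of the same library at day 14, against 5.13% to 50.9% at day 2 (5.13% to 15.5% without the library of 58 microglia) and 0% to 7.02% in sham. The 7 microglial markers summed to 289 to 1947 CPM in monocyte-derived cells at day 14, which was 2.01% to 14.1% of their level in microglia, against 46 to 547 CPM in sham and 270.3 to 702 CPM at day 2. Of these markers 1 to 7 were detected in a library of sham and of day 14 and 2 to 7 at day 2, and Sall1 was at 0 in the median library of sham and day 2. In granulocytes at day 14 the C1q genes stood at 2.44% to 5.66% of microglia and the microglial markers at 2.41% to 5.65%. The part of microglial RNA in the day 14 difference was not tested.

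In border-associated macrophages, which clear debris along the vessels and meninges, C1qb gave 3971 ± 2454 CPM in sham, 5599 ± 1954 at day 2 and 4607 ± 1647 at day 14 (SD, n = 4 each), and the groups overlapped. Of the 8 genes, 6 passed the filter on low counts in this type, and 0 were called by edgeR in any of the 3 comparisons of the 3 groups, where 2.67% of all genes were called at day 2 against sham, 0.0762% at day 14 and 0.838% between the times. At an unadjusted p under 0.05 the number was also 0, and DESeq2 called 0. C5ar1 had the highest log2 fold change, 1.03 ± 0.56 at day 2 (adjusted p = 0.287, edgeR). These libraries held 20 to 282 such cells, which limits the precision.

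C4b, whose product carries the classical pathway from C1q to C3, was higher in microglia at day 14. In replicates 1 to 4 it was at 5.69, 0.548, 1.26 and 0.329 CPM in sham, 11.5, 6.34, 0 and 2.2 CPM at day 2, and 39.5, 51.9, 33.4 and 17.6 CPM at day 14. Each day 14 library lay above every library of the other groups, while sham and day 2 overlapped. The day 2 library at 0 CPM, that of 58 cells, was at 15.5 CPM (2 counts) with counts rounded up, above the other day 2 libraries and below the day 14 ones. The log2 fold change at day 14 was 4.62 ± 0.70 against sham (adjusted p = 0.00058, edgeR; 6.24 without sham replicate 1) and 2.81 ± 0.68 against day 2 (adjusted p = 0.0253; 2.68 and 0.0115 with counts rounded up). The second call was lost without day 2 replicate 2, day 2 replicate 4 or day 14 replicate 1 (highest adjusted p 0.127), and was kept without the library of 58 cells (2.76, adjusted p = 0.0443); without day 2 replicate 1 it was 3.47 (adjusted p = 0.0488). At day 2 the change was 1.81 ± 0.81 (adjusted p = 0.102; 1.86 and 0.117 without the library of 58 cells). Without sham replicate 1, the highest of sham, it was 3.44 with an adjusted p of 0.0122. With the replicate number as a block it was 2.00 (edgeR, adjusted p = 0.0316). C4b passed the filter on low counts through its day 14 libraries, with 11 counts in sham and 22 at day 2, so these tests are descriptions, that between the times included. Border-associated macrophages, which hold more C4b, had their own markers in microglia at 0.162% to 0.897% of their level at day 14 (15.2 to 43.1 CPM summed over the 6 markers). C4b in microglia was then at 21.9%, 22.8% and 55.3% of its level in border-associated macrophages of replicates 1, 2 and 4, and in replicate 3 these held almost none (0.0132 CPM). The part of RNA of border-associated macrophages in the C4b difference was not tested. In border-associated macrophages C4b was at 318, 61.3, 109.7 and 0 CPM in sham and at 203, 375, 0 and 83.2 CPM at day 2, and the log2 fold change was -0.33 ± 0.86 (adjusted p = 0.831). The day 2 library at 0 CPM had C4b in 9 of its 95 such cells, and with counts rounded up it was at 66.4 CPM and the log2 fold change at -0.08 (adjusted p = 0.963).

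Cfb, which encodes the protease of the alternative pathway, was found in young brain in microglia and monocyte-derived cells after stroke and in no sham library of either. In monocyte-derived cells it was at 0 CPM in all 4 sham libraries, at 30.6, 26.6, 20.7 and 22.9 CPM at day 2, and at 109, 128, 123 and 153 CPM at day 14. The 3 groups did not overlap. The sham libraries together held 230541 counts of such cells, so a floor of 3 counts over the group makes Cfb at least 1.92-fold higher at day 2 (adjusted p = 0.00616, edgeR) and at least 9.32-fold higher at day 14 (adjusted p = 0.000197). These folds take the stroke counts as exact. Cfb passed the filter on low counts through the stroke libraries, so both p-values against sham are descriptions. The day 2 call was lost with DESeq2 and without sham replicate 1 (highest adjusted p 0.077). Between the times Cfb rose by 2.32 ± 0.27 on the log2 scale, from 25.2 ± 4.36 to 128.4 ± 18.3 CPM (SD, n = 4 each, adjusted p = 0.002), and was called in each of 16 alternatives.

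In microglia Cfb was at 0 CPM in the 4 sham libraries, at 4.69, 2, 0 and 0.81 CPM at day 2 and at 7.7, 9.03, 15.6 and 8.17 CPM at day 14. The day 14 libraries lay above all others, and the day 2 values rest on 8 counts. The lowest folds given next set sham to a floor of 3 counts and take the stroke counts as exact. Cfb was at least 3.39-fold higher at day 2 (adjusted p = 0.0137, edgeR; at least 3.41-fold and 0.0193 without the library of 58 cells) and at least 18.5-fold higher at day 14 (62 counts, adjusted p = 0.000572); between the times the log2 fold change was 2.47 ± 0.67 with an adjusted p of 0.0502 (0.0228 where fractional counts were rounded up; 2.42 and 0.0962 without the library of 58 cells). Here Cfb passed the filter through the day 14 libraries, so these p-values are descriptions, and it failed the filter in 5 of 15 alternatives at day 2 and in 6 of 15 at day 14. Cfb in microglia was at 5.33% to 12.7% of its level in monocyte-derived cells of the same library at day 14 and at 0% to 15.3% at day 2 (3.54% to 15.3% without the library of 58 cells). The 6 monocyte markers in microglia summed to at most 21.4 CPM in sham, 24.5 to 849 CPM at day 2 (up to 340.1 CPM without that library) and 31.1 to 156 CPM at day 14, which was 0.258% to 8.93% of their level in monocyte-derived cells at day 2 (up to 6.47% without it) and 0.368% to 2.46% at day 14. Of the 6, 1 to 5 were detected in a sham library, 1 to 6 at day 2 and 2 to 6 at day 14, and their part in the day 2 and day 14 differences was not tested.

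**Figure D4:**
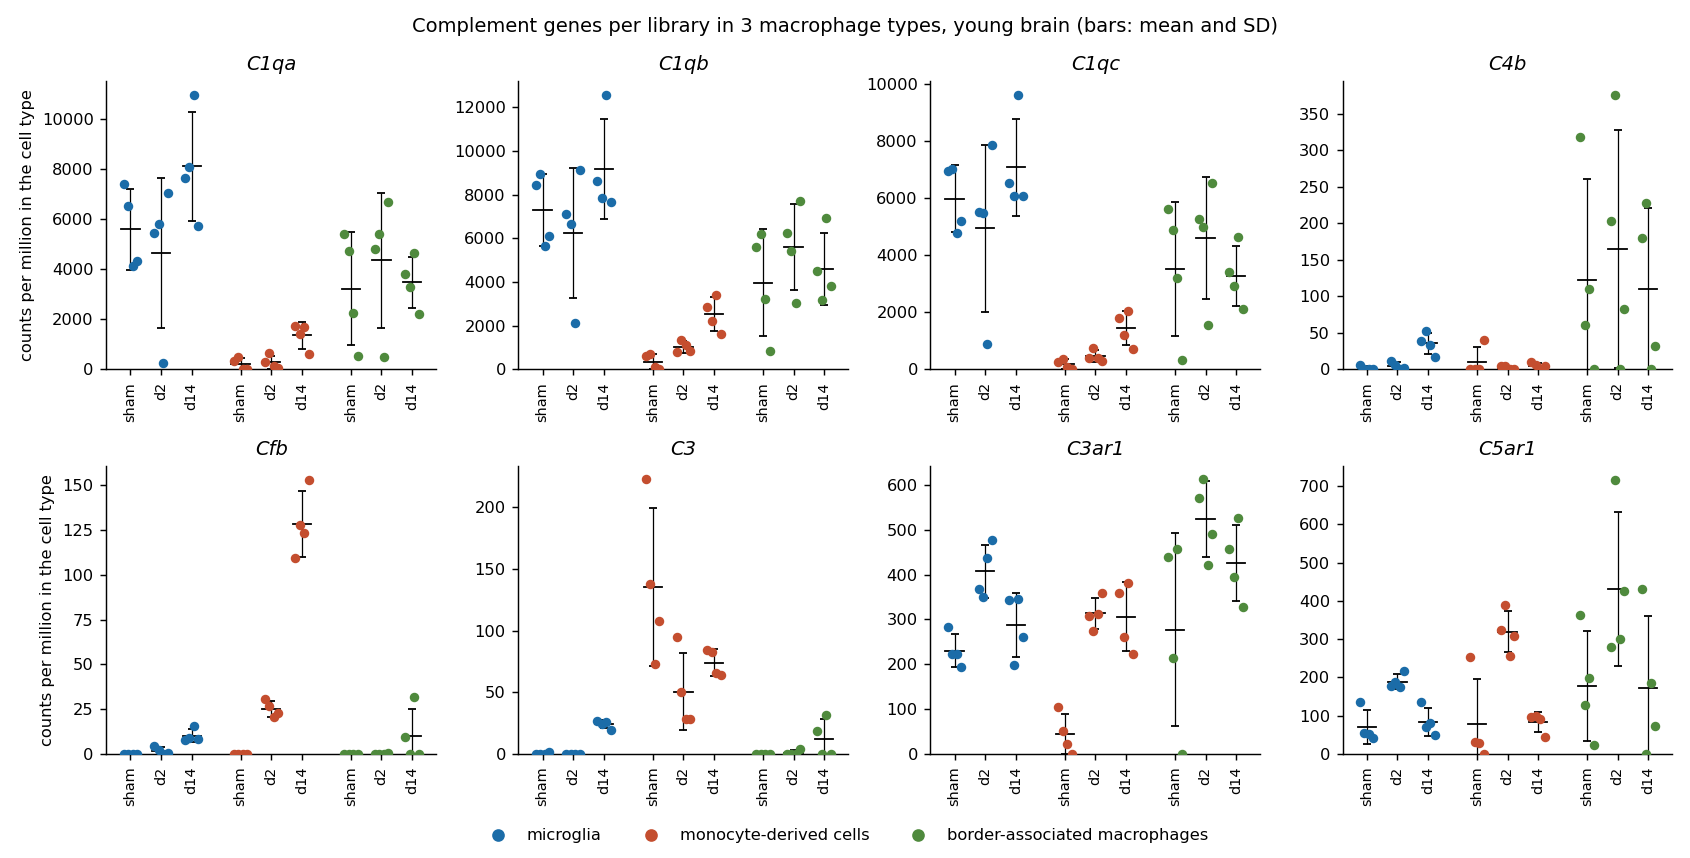
CPM of each gene per library in microglia, monocyte-derived cells and border-associated macrophages of young brain, by group; points are libraries and bars are the mean and SD. Cfb in monocyte-derived cells steps from 0 CPM in sham to 20.7 to 30.6 CPM at day 2 and 109 to 153 CPM at day 14, and C3 in microglia is seen at day 14 (19.7 to 26.6 CPM).

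C3, the central component of the cascade, was found in microglia of every day 14 library, while it summed to 0 there at day 2. It was at 0, 0, 0 and 1.4 CPM in sham, at 0 CPM in all 4 day 2 libraries, and at 26.6, 24.1, 25.9 and 19.7 CPM at day 14. The day 14 libraries were close to each other and apart from the rest. With 152 counts against 2, the ratio of pooled levels to sham was 68, with a 95% counting interval of 18.5 to 567 that covers counting error only, and the adjusted p was 0.000197 (edgeR). Against day 2, with 0 counts as deposited, C3 was at least 35.7-fold higher (adjusted p = 0.00127; at least 35.5-fold and 0.00254 without the library of 58 cells). With counts rounded up, 4 counts in 2 of the day 2 libraries stood against 172 at day 14, a ratio of 30.7 with a 95% counting interval of 11.8 to 114, so the bound rests on the deposited fractions. C3 passed the filter on low counts through its day 14 libraries, so these p-values are descriptions. In the same libraries, C3 in microglia was at 29.3% to 39.4% of its level in monocyte-derived cells, and the monocyte markers were at 0.368% to 2.46% of theirs. The part of RNA of monocyte-derived cells in the C3 difference was not tested.

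In monocyte-derived cells C3 did not pass the test. It was at 222, 138, 73.1 and 108 CPM in sham, 94.7, 50.3, 28.4 and 28.3 CPM at day 2, and 84.2, 82.4, 65.7 and 63.9 CPM at day 14. Day 2 overlapped with both other groups. The log2 fold changes were -1.16 ± 0.43 at day 2 (adjusted p = 0.127, edgeR) and -0.59 ± 0.43 at day 14 (adjusted p = 0.566), and without day 2 replicate 1 the first was -1.65 with an adjusted p of 0.0239. In granulocytes of brain, which were not tested, C3 was at 89.4 ± 31.7 CPM in sham, 51.8 ± 84.8 at day 2 and 174 ± 69.2 at day 14 (SD, n = 4 each).

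C3ar1, the receptor of C3a, was higher after stroke in microglia and in monocyte-derived cells. In microglia it was at 283, 222, 223 and 194 CPM in sham, 368, 349.8, 437 and 476 CPM at day 2, and 344, 198, 345 and 261 CPM at day 14. Every day 2 library exceeded every sham library, and day 14 overlapped with sham. The log2 fold change was 0.95 ± 0.24 at day 2 (adjusted p = 0.00992, edgeR), from 230.5 ± 37.3 to 408 ± 59 CPM (SD, n = 4 each). Without the library of 58 cells it was 0.99 (adjusted p = 0.0126), and without day 2 replicate 4 the adjusted p was 0.0534. At day 14 the change was 0.79 ± 0.23 with an adjusted p of 0.0376, and the call was lost in 10 of 15 alternatives, among them each of the 4 sham libraries and day 14 replicates 1 and 3 left out in turn (adjusted p of 0.0236 to 0.229 over the alternatives). The call was also lost without TMM scaling. Over the alternatives the change ran from 0.32 to 0.93, and the mean went from 230.5 CPM in sham to 287.2 CPM at day 14. C3ar1 in microglia was at 120% to 140% of its level in monocyte-derived cells at day 2 (120% to 133% without the library of 58 cells), where the monocyte markers were at 0.258% to 8.93% of theirs and had risen from at most 21.4 CPM in sham to 24.5 to 849 CPM. Their part in the difference was not tested.

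In monocyte-derived cells C3ar1 was at 104, 50.4, 22 and 0 CPM in sham, 307, 275, 313 and 359 CPM at day 2, and 358, 260.2, 382 and 223 CPM at day 14. Both stroke groups lay above all sham libraries and overlapped with each other. The sham values rest on 16 counts in all, and the library at 0 CPM held 1 count (44.6 CPM) with counts rounded up. The log2 fold changes were 2.75 ± 0.43 at day 2 (adjusted p = 0.00146, edgeR) and 2.67 ± 0.43 at day 14 (adjusted p = 0.00194), and both were called in 16 of 16 alternatives (2.45 and 2.37 with counts rounded up). Without sham replicate 1 they were 3.72 and 3.64. Over all genes tested in this type the median log2 fold change was 0.29 at day 2 and 0.28 at day 14, so relative to the other genes these changes are smaller by that much.

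C5ar1, the receptor of C5a, rose at day 2 in microglia and in monocyte-derived cells. In microglia it was at 136, 54.5, 53.1 and 40.7 CPM in sham, 178, 189, 174 and 216 CPM at day 2, and 135, 69.7, 81.8 and 48.5 CPM at day 14. Every day 2 library lay above every sham library, as did those of 10.7% of all genes, and sham and day 14 overlapped. The log2 fold change at day 2 was 1.62 ± 0.38 (adjusted p = 0.00659, edgeR; 1.66 and 0.011 without the library of 58 cells), and it was called in 15 of 15 alternatives. C5ar1 in microglia was at 48.4% to 70.1% of its level in monocyte-derived cells at day 2, beside the same monocyte markers at 24.5 to 849 CPM (0.258% to 8.93% of their level there), against at most 21.4 CPM in sham. Their part in the C5ar1 difference was not tested. Day 14 against sham gave 0.73 ± 0.36 (adjusted p = 0.183; 1.16 and 0.0372 without sham replicate 1) and against day 2 -0.90 ± 0.37 (adjusted p = 0.173; -0.95 and 0.189 without the library of 58 cells).

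In monocyte-derived cells C5ar1 was at 252, 31.5, 29.3 and 0 CPM in sham, 324, 389, 257 and 309 CPM at day 2, and 97.9, 99.6, 91.4 and 44.1 CPM at day 14. Day 2 lay above both other groups, and the highest sham library (252 CPM) came close to the lowest day 2 library (257 CPM). C5ar1 rose by 1.96 ± 0.54 on the log2 scale at day 2 (adjusted p = 0.0394, edgeR) and fell by 1.95 ± 0.45 from day 2 to day 14 (adjusted p = 0.0372). Without sham replicate 1, the high sham library, the first was 4.12 (adjusted p = 0.00216). The first call was lost in 9 of 16 alternatives (each day 2 library and each of sham replicates 2, 3 and 4 left out among them, highest adjusted p 0.12), and the second in 7 of 16, each with 1 library left out (all but day 2 replicate 2, highest adjusted p 0.141). Day 14 and sham gave a log2 fold change of 0.01 ± 0.56. In granulocytes of brain C5ar1 was at 369 ± 140.3 CPM in sham, 731 ± 109 at day 2 and 604 ± 141 at day 14 (SD, n = 4 each), with no test.

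Endothelial cells carried few counts of these genes as deposited. None of the 8 passed the filter on low counts in young brain, in comparisons that called 13.3%, 0% and 11.2% of all genes (day 2 and day 14 against sham, and day 14 against day 2). Over the 4 libraries of a group C1qb had 6 counts in sham, 0 at day 2 and 19 at day 14, and all 19 came from 1 library. Cfb had 0, 6 and 7 counts. With counts rounded up C1qb had 187, 239 and 219, at 44.9 to 295 CPM over the 12 libraries, and none of the C1q genes was called (log2 fold changes of -0.86 to 0.70, lowest adjusted p 0.106). Whether the response in endothelial cells differed from that in microglia of the same libraries was tested per gene and time on log2(CPM + 1), with a two-sided exact permutation test of 4 against 4 libraries whose smallest possible p is 0.0286. Of the 16 tests 4 reached that p, and 10 would have had to for any to pass after adjustment, so that 0 passed says little.

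Within the types, the deposited finer codes were clustered on these same genes, so their levels are a description. Of the 152 C3 counts in day 14 microglia, 118.7 lay in the code Mg3 (29.1 CPM, 3415 cells), and Mg7 had 22.7 CPM. C4b at day 14 was at 38.2 CPM in Mg3, 41.3 CPM in Mg6 and 31.8 CPM in Mg7, and at 0 and 6.21 CPM in Mg2 and Mg1, which rest on 0 and 1 counts where 3 counts would be 14.9 and 18.9 CPM. C3ar1 at day 2 was highest in Mg4 (680 CPM in 1034 cells), where C5ar1 was at 293 CPM. Cfb in monocyte-derived cells at day 14 was at 210.5 CPM in MdC4, 116 CPM in MdC6 and 87.2 CPM in MdC5, and C5ar1 at day 2 peaked in MdC2 (436 CPM). Over the young libraries, C4b in border-associated macrophages was at 209 CPM in BAM1 and 8.39 CPM in BAM2. The other codes of this type also held C4b counts and are not listed.

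In blood, C5ar1 marked neutrophils and C3 was shared by neutrophils and monocytes. C3 in neutrophils was at 51, 63.1, 40.7 and 40.7 CPM in sham, 31.4, 48.2, 39.9 and 64.2 CPM at day 2, and 79.7, 108 and 88.8 CPM in the 3 day 14 libraries. The day 14 libraries lay above all others. Day 14 lay wholly above sham for 18.9% of all genes tested, and the C3 log2 fold change of 0.59 ± 0.28 was not called (adjusted p = 0.257, edgeR). C5ar1 in neutrophils was at 378 ± 48.9 CPM in sham (SD, n = 4), 395 ± 99.1 at day 2 (n = 4) and 435 ± 82.7 at day 14 (n = 3). In monocytes, which are the circulating counterpart of the brain's monocyte-derived cells, C3 was at 102 ± 75.8, 145 ± 48.9 and 98.0 ± 21.0 CPM and C5ar1 at 26.6 ± 10.8, 52.0 ± 28.5 and 16.6 ± 15.5 CPM in the same order of groups (SD). C3ar1 was highest in the eosinophil and basophil code, with 0, 373 and 753 CPM as the lowest, median and highest library, against a median of 4.12 CPM in monocytes. C1qb in monocytes was at 2.07 to 76 CPM in sham, 0 to 35.8 at day 2 and 1.16 to 25.8 at day 14, and C1qa, C4b and Cfb had a median of 0 CPM in every blood type.

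Of the 8 genes, 2 passed the filter in neutrophils (C3 and C5ar1) and 3 in monocytes (these and C1qb). edgeR called 0 of them in either comparison, DESeq2 also called 0, and 0 had an unadjusted p under 0.05. Of all genes, 0% and 5.99% were called in neutrophils at day 2 and day 14 (at day 14, 108 of 296 calls were higher, and 293 of 392 without TMM scaling), and 0% and 0.254% in monocytes.

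In aged brain the receptors did not pass the test in microglia at day 2, though every stroke library lay above sham. C3ar1 was at 205 and 193 CPM in the male and the female sham library, and at 707 CPM in the male and 619.9 and 307 CPM in the female stroke libraries. C5ar1 was at 84 and 38.6 CPM in sham and at 209, 180.0 and 94.1 CPM after stroke. In both cases all 3 stroke libraries lay above both sham libraries, as did those of 16.6% of all genes. The log2 fold changes were 1.53 ± 0.39 for C3ar1 (adjusted p = 0.0503, edgeR) and 1.60 ± 0.52 for C5ar1 (adjusted p = 0.129). The fit also held the young sham and day 2 libraries, so its standard errors and p-values rest on libraries of both ages. With 5 of the 8 genes tested, 0 were called (2.30% of all genes were). At an unadjusted p under 0.05 (edgeR) there were 2, these receptors, beside 1782 of all 11096 genes tested. Of the 8 genes, C3ar1 was the 1 called by DESeq2 (adjusted p = 0.00144), for which no share over all genes is given. The difference between the aged and the young response was 0.56 ± 0.47 for C3ar1 (adjusted p = 0.828) and -0.05 ± 0.63 for C5ar1 (adjusted p = 1), and 0.46 and -0.12 without the young library of 58 cells (adjusted p of 0.814 and 0.994). That test called 0 of the 5 genes and 0% of all genes, 0 of the 5 passed at an unadjusted p under 0.05, and with DESeq2 the count was 0. It set young males against aged mice of both sexes, so the difference is not of age alone. The C1q chains had log2 fold changes of -0.03 ± 0.79, 0.02 ± 0.57 and 0.11 ± 0.67 for C1qa, C1qb and C1qc in aged microglia.

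Aged microglia also held C3 and C4b at low levels, and almost no Cfb. C3 was at 4.97 and 0.606 CPM in sham, 3.43, 0.897 and 0 CPM at day 2 and 11.3 CPM (15 counts) in the 1 day 14 library, which lay above all other aged libraries and below the young day 14 range of 19.7 to 26.6 CPM. C4b was at 2.76 and 1.23 CPM in sham, 7.87, 9.73 and 4.3 CPM at day 2 and 7.56 CPM at day 14. Cfb was at 0 and 0.606 CPM (1 count) in sham and at 0 CPM in the 3 day 2 libraries and in the day 14 library, where the young day 14 libraries were at 7.7 to 15.6 CPM. Young and aged tables were made with different gene sets, so levels across them are set side by side only. Cfb in aged monocyte-derived cells was at 35 CPM (1 count) and 0 CPM in sham, 11.8, 34.5 and 45.1 CPM at day 2 and 103 CPM (5.88 counts) at day 14. In aged endothelial cells 1 gene was tested, C1qb, with a log2 fold change of -0.99 ± 2.05 (adjusted p = 0.911, edgeR; 0.606% of all genes were called). The difference of the C1qb response between aged and young endothelial cells was 3.47 ± 2.78 (adjusted p = 0.85, with 0% of all genes called), and 0.08 ± 0.62 with counts rounded up (adjusted p = 1), where C1qb in young day 2 libraries no longer summed to 0. The aged change alone was then -0.71 ± 0.51 (adjusted p = 0.634).

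**Figure D5:**
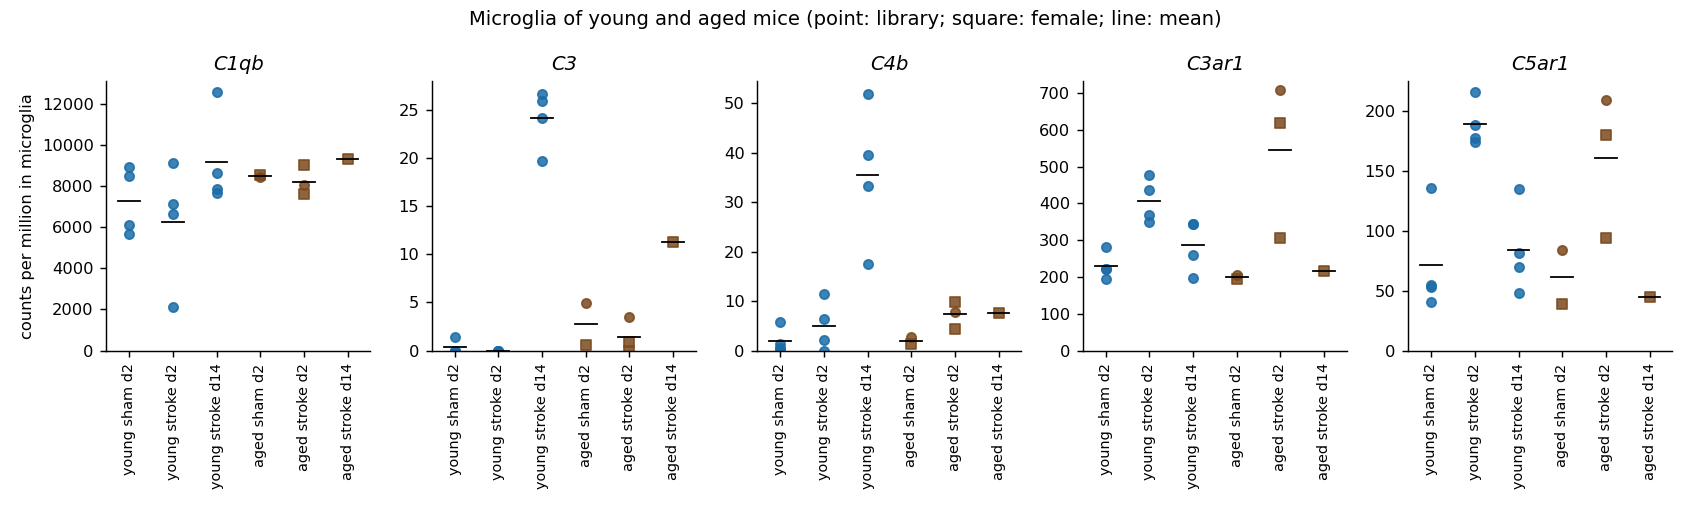
CPM of C1qb, C3, C4b, C3ar1 and C5ar1 in microglia of young and aged brain by group; a point is a library, a square is a female library and a line is the group mean. Aged C3ar1 lies at 193 to 205 CPM in sham and 307 to 707 CPM at day 2, and C3 is highest in the young day 14 libraries (19.7 to 26.6 CPM).

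A wider list of 41 complement genes was read in the same fits, of which 25 were in the brain tables and 19 in the blood tables; initiators, alternative pathway and terminal components, receptors and regulators were included. In young microglia 7 passed the filter. At day 2, 3 were called higher and 2 lower, where 31.4% of all genes were called and 15.7% as higher. At day 14, 3 were called higher and 1 lower, where the shares were 15.2% and 10.6%. Itgax, which encodes the alpha chain of complement receptor 4, rose by 5.44 ± 0.45 on the log2 scale at day 14, from 2.12 ± 1.18 to 70.4 ± 7.1 CPM (SD, n = 4 each, adjusted p = 3.8e-06, edgeR). With 12 counts in sham against 442 at day 14, it passed the filter through its stroke libraries, so this p is a description. C5ar2, the second receptor of C5a, fell by 1.13 ± 0.40 at day 2 (adjusted p = 0.0476) and by 1.86 ± 0.39 at day 14 (adjusted p = 0.00627), from 52.9 ± 27.9 to 17 ± 13.7 and 10.5 ± 2.87 CPM. Without the library of 58 cells the day 2 change was -1.08 with an adjusted p of 0.0594. In monocyte-derived cells 8 of the list passed the filter. Thbd, which encodes thrombomodulin, fell there by 1.43 ± 0.33 from day 2 to day 14 (adjusted p = 0.0369). In endothelial cells 6 of the list were tested, and Cd59a, an inhibitor of the terminal complex, fell by 1.03 ± 0.22 at day 2, from 764 ± 104 to 352 ± 47.8 CPM (adjusted p = 0.00868). Among the other calls, Masp1 (which passed the filter through its stroke libraries) and Itgb2 in microglia at both times and Cd93 in endothelial cells at day 2, all higher, fall outside the rule for naming and were chosen after their values were seen. Without the library of 58 cells the day 2 call on Itgb2 was lost (adjusted p = 0.0613). In border-associated macrophages edgeR called 0 of 5 in each comparison, and DESeq2 called 0. At an unadjusted p under 0.05 (edgeR) there were 2, 2 and 1 (day 2 and day 14 against sham, day 14 against day 2). Of all 1313 genes tested there, 301, 79 and 215 were at such a p. In monocyte-derived cells at day 2 edgeR called 0 of 8 and DESeq2 called 0. At an unadjusted p under 0.05 (edgeR) there were 4, beside 1623 of all 8080 genes tested. In endothelial cells edgeR called 0 of 6 at day 14 and between the times, and DESeq2 called 1 and 0. At an unadjusted p under 0.05 (edgeR) there was 1 each, beside 356 and 1546 of all 5833 genes tested. In blood neutrophils and monocytes edgeR called 0, with 0 or 1 per comparison at an unadjusted p under 0.05 and 0 by DESeq2. Of all genes, 209 and 1001 of 4944 in neutrophils were at such a p at day 2 and day 14. In monocytes these were 189 and 366 of 6706. In aged brain all these counts for the list were 0.

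The genes whose levels were most like those of each member were found over 83 sums of a young brain library and a cell type, in 9 types, among 6152 genes; the sums share libraries and depth, so the correlations are descriptions. C1qa was nearest to Csf1r (r = 0.936), the receptor of the growth factor that microglia need. C1qb was nearest to C1qc (0.929) and C1qc to C1qa (0.931). Outside the members, C1qb and C1qc were nearest to Csf1r (0.887 and 0.892). C3ar1 was nearest to the Fc receptor gene Fcgr1 (0.864) and C5ar1 to Slc11a1 (0.884), a metal transporter of phagocytes. C3 was nearest to Lilra6 (0.830), Cfb to Gpnmb (0.756), a lysosomal glycoprotein gene of lipid-laden macrophages, and C4b to Igf1 (0.669), which encodes a growth factor.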

How the data were processed

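Cells were measured by Drop-seq per the labels. The deposited matrices hold expected counts: the values are mostly fractional in the authors' files, how they were corrected is not given in the sources used here, and Seurat and the build mm10 are named in the submitters' processing notes without versions. The cell tables deposited by the authors gave the type codes. They also hold, as deposited by the authors, a signal value (summed counts) per cell, a count of genes and the percent of mitochondrial counts, none of which entered a test.

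Counts were summed per library and type (at least 20 cells), rounded to whole numbers and tested with edgeR 4.0.16 in R 4.3.3 (TMM scaling, filterByExpr, quasi-likelihood test, Benjamini-Hochberg over all genes tested); the young brain groups shared a fit. The aged sham and day 2 groups were fitted together with the young sham and day 2 groups. Levels are CPM of the unrounded sums. DESeq2 1.42.0, other filters, scalings, roundings, doublet scores and each library left out served as alternatives. The steps were tested on simulated data. Scrublet's automatic threshold marked 37 of 106977 cells, so no doublets were removed. Intervals and floors (3 counts over a group) cover counting error only. Replicate numbers were not used to pair libraries in the main fits.

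The members and lists were chosen with earlier results of these data known. A wider-list gene is named if called with at least 20 CPM and no overlap of the groups, up to 4 per comparison; 1 gene of that list is not reported here. For likeness, the nearest gene by Pearson's r of log2(CPM + 1), pseudocount 1, is given over sums of at least 50 cells. For C1qb and C1qc the nearest gene outside the members is given as well.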

Additional observations from a re-analysis of the deposited data

Results flagged for a closer look

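Of 69 groups of 4 libraries with at least 20 counts of a gene in a type, 6 had a library far from the rest by Dixon's criterion, which chance gives in about 1 in 20 groups. Among sham libraries, replicate 1 was high for C5ar1 in microglia (136 CPM, the others at 40.7 to 54.5) and in monocyte-derived cells (252 CPM, the others at 0 to 31.5), and blood replicate 1 was high for C1qc in monocytes (31.7 CPM, the others at 0 to 3.92). At day 14, replicate 3 was high in microglia for C1qc (9630.3 CPM, the others at 6068 to 6553) and Cfb (15.6 CPM, the others at 7.7 to 9.03), and replicate 4 was low in monocyte-derived cells for C5ar1 (44.1 CPM, the others at 91.4 to 99.6).

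Day 14 and day 2 differed by edgeR's test for Cfb in monocyte-derived cells (log2 difference 2.32) and C5ar1 in monocyte-derived cells (-1.95, lost in 7 of 16 alternatives). In microglia C4b was higher at day 14 by 2.81 on the log2 scale (lost without each of 3 libraries) and C3 at least 35.7-fold as deposited, and both values are descriptions, since these genes passed the filter on low counts through their day 14 libraries.

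The single aged day 14 library entered no comparison, and 17 of its 24 values of a gene in a macrophage type lay above both aged sham libraries. Among all genes with a count, 20.9% lay above in microglia, 35.7% in monocyte-derived cells and 36.7% in border-associated macrophages. Of the 17, 12 rest on at least 10 counts; among all genes with as many, the shares were 23.2%, 47.7% and 55.2%. In microglia they were C1qb at 9292 CPM (sham 8451 to 8539), C1qc at 6830.3 (6156 to 6516), C3ar1 at 216 (193 to 205), C3 at 11.3 (0.606 to 4.97) and C4b at 7.56 (1.23 to 2.76). In monocyte-derived cells C1qa was at 1392 CPM (57.1 to 103), C1qb at 2642 (129 to 192) and C1qc at 1859 (97.2 to 201). In border-associated macrophages C1qb was at 6986 CPM (5134 to 5975), C1qc at 5312 (3616 to 5057), C4b at 201 (45.2 to 87.9) and C5ar1 at 184 (89.1 to 106). The other 5 rest on fewer counts: C3 and Cfb in border-associated macrophages at 66.0 and 47.7 CPM (0 in sham), and Cfb, C5ar1 and C4b in monocyte-derived cells at 103, 76.6 and 51.3 CPM (at most 35.0 in sham). The 7 not above both were C1qa (5407 CPM, sham 6143 to 7005), C5ar1 and Cfb (0) in microglia, C1qa (3430, sham 4632 to 4823) and C3ar1 in border-associated macrophages, and C3 and C3ar1 in monocyte-derived cells. Its difference from sham was not tested.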

How the results depend on the processing

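Of 19 calls on the 8 genes, 0 reversed and 12 were kept under every alternative that tested them. Most of the kept calls are tests named descriptions above. The exceptions are C5ar1 in microglia at day 2 and Cfb in monocyte-derived cells between the times. Of 21 comparisons, 14 kept their count of called genes within 1.5 times. Among comparisons with a call as reported, monocyte-derived cells at day 14 against sham alone did so. The rest of the 14 had 0 called throughout, some with none of the 8 tested as reported. With 1 library left out, the count was 1 to 3 in microglia at day 2, 2 to 4 at day 14 and 1 to 2 between the times; 2 to 3, 4 to 5 and 1 to 3 in monocyte-derived cells; 0 to 1 in aged microglia; and 0 elsewhere. Without the filter on low counts, 1 gene was called in endothelial cells between the times (C1qb, whose counts came from 1 library), 5 in monocyte-derived cells at day 2 and 2 in aged microglia. DESeq2, library sizes without TMM scaling, and leaving out the 5% of cells with the highest Scrublet scores (an alternative chosen after seeing the data) each called 1 in aged microglia. Counts rounded up called 4 in monocyte-derived cells between the times, with C1qa and C1qc added. With the replicate number as a block, 5 were called in monocyte-derived cells at day 2 (C1qb and C1qc added) and 4 between the times (C1qa and C1qc added). In microglia the block called 4 at day 2 (C4b added) and 3 at day 14 (C3ar1 lost). Correlations of libraries with the same number had medians of 0.0242 to 0.114, against -0.0702 to 0.00674 for different numbers. These low medians cannot settle whether the numbers pair libraries. In aged microglia a block of the number within an age, chosen after seeing the data, called 2 of the genes, C3ar1 (1.80, adjusted p = 0.0447, edgeR) and C5ar1 (1.87, adjusted p = 0.0324); whether those numbers pair libraries was not tested. Without TMM scaling, the median log2 change of all genes in microglia at day 14 moved from -0.04 to -0.49. The planned removal of cells marked by Scrublet was not run, since it marked almost none. Sham libraries of monocyte-derived cells (43 to 99 cells) limit what can be seen there.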
